A study of Mus musculus with 4 samples.

Results

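The genes described here are 10 that copy DNA before a cell divides or supply that process: Mcm2, Mcm3, Mcm4, Mcm5, Mcm6, Mcm7, Mcm10, Pcna, Tyms and Rrm2. They were listed by name, but with earlier results of these data known, among them that Mcm6 passes. All 10 were among the 19296 genes measured. The samples were ureters of male mice of a 129Sv/C57BL6 mix, with 1 array per mouse. The knockout group was 2 mice of genotype miR-143/145-/-, aged 2.5 months and with hydronephrosis, in which held-back urine distends the kidney. The wild type group was 2 mice of genotype miR-143/145+/+, aged 4.5 months and with normal kidneys. Genotype, age and kidney state therefore cannot be told apart, and every difference below is one between these groups of mice. The deletion removes a pair of microRNAs that are abundant in smooth muscle, and no Cre driver or tissue restriction is given in the labels.

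Replication begins when a ring of the 6 proteins encoded by Mcm2 to Mcm7 is loaded onto DNA at origins, where it waits inactive until S phase. Kinases and partner proteins then turn the ring into the helicase that unwinds the duplex. Mcm10 takes part in that activation, PCNA is the sliding clamp that holds polymerases on the template, thymidylate synthase (Tyms) makes the thymine nucleotide, and Rrm2 is the small subunit of ribonucleotide reductase, which makes deoxyribonucleotides. Most of these genes are transcribed as cells enter S phase, under control of E2F factors, and are low in resting tissue. The adult ureter wall is known as a tissue that divides slowly.

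Values are log2 expression values summarised by RMA, a method that corrects background and makes arrays alike. A background level of log2 6.58 was set at the 95th percentile of 1024 olfactory receptor genes, which ureter is not known to use. Each adjusted p comes from limma fitted to all 19296 genes, with Benjamini-Hochberg adjustment and a threshold of 0.05. The labels were checked by the deleted genes. Mir145a measured 4.60 and 5.02 in knockout ureter, against 8.28 and 8.42 in wild type ureter. Both knockout values were below background, which puts the fall at 3.42-fold or more (limma, adjusted p = 0.00193). Mir143 was 6.48 and 6.53 in knockout, also below background, and 7.64 and 7.85 in wild type. Its fall was smaller, at 2.24-fold or more (limma, adjusted p = 0.0148). Smooth muscle and urothelial markers were bright on every array. Acta2, the smooth muscle actin, was 13.46 and 13.45 in knockout and 13.33 and 13.24 in wild type. Upk2, a urothelial plaque protein, was 12.43 and 12.86 in knockout and 11.84 and 12.11 in wild type.

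Mcm6 was the 1 gene of the 10 that passed the threshold, and it rose 1.77-fold in knockout ureter. Its values were 7.53 and 7.70 in knockout and 6.74 and 6.83 in wild type. Both knockout arrays lay above both wild type arrays, and the wild type values stood just above background. The means were 7.61 ± 0.12 in knockout and 6.78 ± 0.06 in wild type (SD, n = 2 each). The log2 difference was 0.83 with a standard error of 0.12 and a 95% interval of 0.54 to 1.12 (limma, adjusted p = 0.0349). The same test called 2.38% of all genes in either direction, 1.90% as higher and 0.477% as lower in knockout, so 1 of 10 is a small count to read against that background. With either wild type mouse left out, the call was lost at adjusted p = 0.183 and 0.216. Limma then passed 0 genes of all 19296, while 4253 and 3079 had an unadjusted p under 0.05.

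Because Mcm6 is the gene that passed, its promoter is shown, with matches to a word bound by E2F factors in capitals. The sequence is that of RefSeq on GRCm38.p6, minus strand, chr1:128359656-128359955, and runs from 250 bases before the start site to 50 after it.
Mcm6: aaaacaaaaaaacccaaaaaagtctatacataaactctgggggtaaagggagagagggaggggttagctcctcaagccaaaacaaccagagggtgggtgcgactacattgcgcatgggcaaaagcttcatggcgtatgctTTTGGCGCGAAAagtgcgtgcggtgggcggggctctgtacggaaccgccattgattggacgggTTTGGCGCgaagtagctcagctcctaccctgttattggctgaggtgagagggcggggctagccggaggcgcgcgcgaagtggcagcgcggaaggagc
The words searched on both strands were TTTCCCGC, TTTCGCGC, TTTGCCGC and TTTGGCGC. The Mcm6 promoter held 3 matches, which began 110, 106 and 47 bases before the start site. The first pair overlap, so that they form 1 run of capitals.

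The same words were found in the promoters of Mcm3, Mcm5 and Mcm7, shown here with 16 bases on either side, or up to the end of the promoter, so that the ring genes can be compared. The Mcm3 stretch is chr1:20820263-20820309 on the minus strand, and the Mcm5 stretch is chr8:75109340-75109383 on the plus strand. The Mcm7 stretches are chr5:138172025-138172064 and chr5:138171844-138171883, both on the minus strand.
Mcm3: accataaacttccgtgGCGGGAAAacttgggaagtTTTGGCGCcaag
Mcm5: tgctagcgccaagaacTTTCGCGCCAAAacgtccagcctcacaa
Mcm7 upstream: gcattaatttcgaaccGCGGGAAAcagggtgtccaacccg
Mcm7 downstream: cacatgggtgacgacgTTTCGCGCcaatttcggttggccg
Promoters were held for 9 of the 10 genes, all but Mcm4, and 4 of the 9 had a match. A match was present in 3.52% of the 15160 measured genes that have a promoter in the table and in 2.26% of all 32851 promoters. Among 83 other replication genes with a promoter, 27 had one, or 32.5%. The letter string CCAAT, on either strand and free to overlap the other words, was present for 8 of the 9 genes and for 41.8% of the measured genes. The 4 ring genes with an E2F-type match had log2 differences of 0.83 (Mcm6), 0.15 (Mcm7), 0.10 (Mcm3) and 0.09 (Mcm5), so a match was present both in the gene that passed and in genes close to no difference. These matches describe the letters of the window and are not shown to be bound.

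The other ring genes did not pass, although all 6 had a higher mean in knockout ureter. Mcm4, whose product sits in the catalytic part of the ring with those of Mcm6 and Mcm7, was 8.45 and 8.48 in knockout and 8.01 and 8.04 in wild type. Each genotype's pair lay close together and the pairs did not overlap. Its log2 difference of 0.45 had a 95% interval of 0.18 to 0.71 and an adjusted p of 0.0759 by limma. Mcm2, a regulatory subunit that also binds histones, was 8.31 and 8.54 in knockout and 8.14 and 8.27 in wild type. These pairs did not overlap either, but the nearest knockout and wild type arrays were close, and the interval of -0.09 to 0.53 included 0 (limma, adjusted p = 0.326).

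Mcm7 was 8.31 and 8.45 in knockout and 8.18 and 8.28 in wild type, a difference of 0.15 with an interval of -0.14 to 0.43. Mcm3 was 7.128 and 7.112 in knockout and 7.051 and 6.996 in wild type. Its difference of 0.10, with an interval of -0.17 to 0.36, was of the order of its standard error of 0.11. Mcm5, which forms with Mcm2 the gate through which DNA enters the ring, was 7.90 and 7.83 in knockout and 7.68 and 7.86 in wild type. Its genotypes overlapped, at a difference of 0.09 with an interval of -0.20 to 0.38. The upper ends of these 3 intervals, 0.43, 0.36 and 0.38, and that for Mcm2, 0.53, lie below the lower end for Mcm6, 0.54, while the interval of Mcm4 overlaps it. Mcm6 stands here as the ring gene with the largest difference, so its interval lying apart from others is no further evidence. The differences between ring genes were not tested.

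Although their products form a ring with 1 copy of each, the probe sets of the ring genes differed unequally between genotypes. The log2 value of Mcm6 minus the mean of the other 5 ring genes was -0.50 and -0.38 in knockout ureter, against -1.07 and -1.06 in wild type ureter. The 2 genotypes did not overlap, and the gap was smaller on both knockout arrays. Mcm6 was singled out as the ring gene with the largest difference, so this separation follows from that choice and is no further evidence. Only the change in this gap can be read, since probe sets of different genes have no common scale. The mean over the other 5 ring genes was 8.02 and 8.08 in knockout and 7.81 and 7.89 in wild type. Their median difference was 0.15, against -0.02 over all genes and 0.03 over the 14227 genes above background. The wild type replicate with the lower ring mean was also the one with the lower median of all probe sets. In knockout the order was opposite, and the replicate with the lower ring mean had the slightly higher median. Array medians were 7.892 and 7.889 in knockout and 7.805 and 7.839 in wild type. With the arrays centred on their medians, the difference of Mcm6 was 0.75 and those of the other 5 ring genes ran from 0.02 to 0.37.

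**Figure D1:**
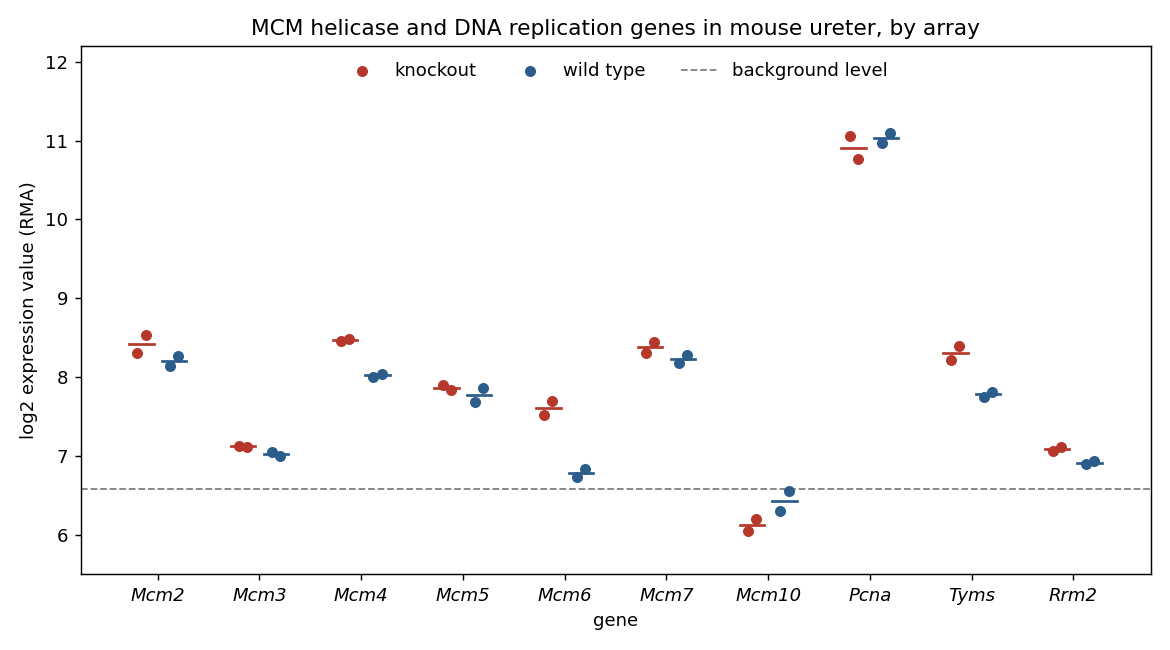
Log2 expression value (RMA, vertical axis) of each of the 10 genes (horizontal axis) on each array. Red points are the 2 knockout mice and blue points the 2 wild type mice, short lines are group means, and the dashed line is the background level of 6.58. The gap between genotypes is widest for Mcm6, whose wild type values of 6.74 and 6.83 sit just above the dashed line, while those of Mcm10 all lie below it.

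Of the remaining genes, those for nucleotide supply were both higher in mean. Tyms was 8.22 and 8.40 in knockout and 7.75 and 7.82 in wild type. The genotypes did not overlap, and the log2 difference of 0.52 had an interval of 0.24 to 0.81 without passing (limma, adjusted p = 0.0690). The difference was 0.61 without knockout replicate 1 and 0.44 without knockout replicate 2. It was 0.49 and 0.56 without wild type replicate 1 and 2. RefSeq lists a transcribed pseudogene of Tyms, Tyms-ps, and its part in the signal was not tested. Rrm2 was 7.06 and 7.12 in knockout and 6.90 and 6.93 in wild type, pairs that did not overlap and lay close together. Its difference was 0.17, with an interval of -0.09 to 0.44 (limma, adjusted p = 0.362).

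Pcna and Mcm10 were lower in mean and did not pass. Pcna was 11.06 and 10.76 in knockout and 10.97 and 11.09 in wild type. One knockout array lay between the wild type arrays and the other below them. The log2 difference was -0.12, with an interval of -0.45 to 0.21. A second probe set of Pcna was 10.81 and 10.82 in knockout and 10.76 and 10.68 in wild type, a difference of 0.09, so the direction for Pcna depends on the probe set. RefSeq also lists the pseudogenes Pcna-ps1 and Pcna-ps2, and the tables used here do not say which copy each probe set reads. Mcm10 was 6.04 and 6.20 in knockout and 6.30 and 6.55 in wild type, all not above background, so no fold is given. The lower quartile of all probe sets was 6.26 and 6.27 in knockout and 6.36 and 6.45 in wild type. The part of this shift in the values of Mcm10 was not tested.

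Taking the 10 genes as they stand, 7 had both knockout arrays above both wild type arrays, 1 had both below and 2 overlapped. Over all genes these shares were 28.0% above and 32.0% below, so that 60.0% of all genes did not overlap. Of the 10, 3 had an unadjusted limma p under 0.05 in the higher direction and 0 in the lower, where 12.7% and 13.8% of all genes did. The median log2 difference of the 10 was 0.16. No test was made of the list as a whole.

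**Figure D2:**
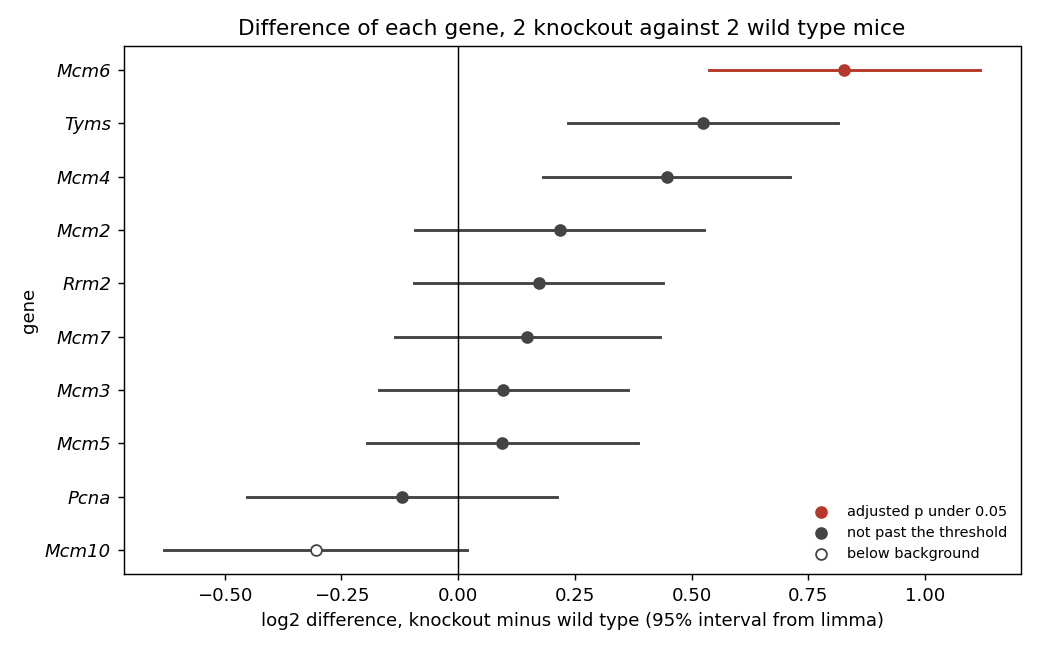
Log2 difference, knockout minus wild type (horizontal axis), of each of the 10 genes (vertical axis), with lines for the 95% interval from limma with n = 2 mice each. Red marks the 1 gene past an adjusted p of 0.05, Mcm6 at 0.83, and the open point marks Mcm10, which was not above background. The intervals of Mcm6, Tyms and Mcm4 lie to the right of 0.

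Markers of several cell types were higher beside Mcm6 in these whole-organ samples, in which more cells of a type and more RNA per cell cannot be told apart. All 16 urothelial markers were higher in knockout ureter and above background, with a median log2 difference of 0.65, and 1 of them passed. Their summed linear signal was 67624 and 87023 in knockout, against 47398 and 57146 in wild type. For 10 smooth muscle markers, 8 were higher, 1 of them past the threshold, and the sums were 38592 and 35416 in knockout and 31979 and 30125 in wild type. Among 10 fibroblast and mesenchyme markers, 8 were higher, 3 of them past the threshold, and the sums were 37300 and 39308 in knockout and 30636 and 31344 in wild type.

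Of 11 measured kidney markers, 10 of them above background, 9 were higher in mean and 0 passed limma. An unadjusted limma p under 0.05 was reached by 1 higher and 1 lower gene, and by 12.7% and 13.8% of all genes. The median log2 difference of the 11 was 0.74. The genotypes overlapped for 8 of them, while 1 had both knockout arrays above both wild type arrays and 2 had both below. Among all genes 28.0% lay above and 32.0% below. The sums were 6681 and 1326 in knockout and 1192 and 2233 in wild type, so only knockout replicate 1 was high. Of 9 measured lymphocyte genes, 5 were above background. In knockout 8 of the 9 were lower, 1 of them past the threshold and 4 at an unadjusted limma p under 0.05. For all genes these shares were 0.477% and 13.8%. The lymphocyte sums were 881 and 806 in knockout and 1116 and 1309 in wild type. The 10 macrophage genes summed to 5845 and 5184 in knockout and 6200 and 6786 in wild type, and 9 were lower without passing. The part of any of these cell types in the rise of Mcm6 was not tested.

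The remaining machinery of replication was described from a list of 102 measured genes in 6 groups. Only Pole2 passed as higher and only Cdkn2c as lower, and 100 did not pass, which is 1.96% called against 2.38% of all genes. The median log2 difference of the 102 was 0.06, against -0.02 over all genes. Of the list, 41 genes had both knockout arrays above both wild type arrays, 21 had both below and 40 overlapped, so that 60.8% did not overlap, against 60.0% of all genes. The count of genes that passed rested on single mice, as did that over all genes. It was 11 without knockout replicate 1, with 10 of them higher, where 9.04% of all genes were called. It was 3 without knockout replicate 2, all of them lower (Cdkn2c, Cdkn2a and E2f2), where 2.95% of all genes were called. The 10 that passed as higher without knockout replicate 1 were Pole2, Dbf4, Gins3, Pold3, Rnaseh2b, Dctd, Shmt2, Ccnd1, Ccnd2 and Cdc25a. It was 0 without either wild type mouse, where 21 and 14 of the 102 had an unadjusted limma p under 0.05.

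Genes that load the ring at origins showed the narrowest spread of the 6 groups. Of 12 measured, 0 passed limma in either direction, and the median difference was 0.03. None reached an unadjusted limma p under 0.05, where 12.7% of all genes did as higher and 13.8% as lower. Orc4, a subunit of the origin recognition complex, was 8.76 and 8.69 in knockout and 8.55 and 8.30 in wild type (difference 0.30, adjusted p = 0.203 by limma). Mcmbp, which binds MCM proteins, was 10.08 and 10.02 in knockout and 9.83 and 9.93 in wild type (difference 0.17, adjusted p = 0.375). The loading factors Cdc6 and Cdt1, chosen after their values were seen, differed by 0.11 and -0.0031, and the genotypes overlapped for both.

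Genes that activate the helicase differed in both directions, and 0 of 12 passed limma. An unadjusted limma p under 0.05 was reached by 2 higher genes and 1 lower gene, and by 12.7% and 13.8% of all genes. Dbf4, the activating subunit of the kinase that phosphorylates the MCM ring, was 6.76 and 6.90 in knockout. In wild type it was 6.24 and 6.24, both below background. It was higher by at least 1.19-fold without passing (limma, adjusted p = 0.0529), and it passed under a further quantile normalization at adjusted p = 0.0457. Recql4, a helicase that takes part in initiation, was 6.349 and 6.523 in knockout, both below background, and 6.849 and 7.003 in wild type. It was lower by at least 1.28-fold without passing (limma, adjusted p = 0.0802).

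Among 12 genes of the polymerases and primase, only Pole2 passed, and it rose, while the group's median difference was 0.07. Pole2, the second subunit of the leading strand polymerase epsilon, was 7.32 and 7.37 in knockout and 6.63 and 6.66 in wild type. Each pair was tight and the pairs were far apart compared with their spread. The rise was 1.62-fold, at a log2 difference of 0.70 with an interval of 0.43 to 0.96 (limma, adjusted p = 0.0386). The call was lost without knockout replicate 2 at adjusted p = 0.0518, and without either wild type mouse at 0.183 and 0.216. Pole, the catalytic subunit gene, was not above background on any array. Pold3, a subunit of polymerase delta chosen after its values were seen, was 9.26 and 9.47 in knockout and 8.79 and 8.80 in wild type and did not pass (limma, adjusted p = 0.0627).

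The clamp loader, fork and lagging strand group held 26 measured genes, of which 0 passed limma. An unadjusted limma p under 0.05 was reached by 5 higher genes and 1 lower gene, and by 12.7% and 13.8% of all genes. Rnaseh2b, a subunit of the enzyme that removes ribonucleotides from DNA, was 8.18 and 8.25 in knockout and 7.67 and 7.41 in wild type (limma, adjusted p = 0.0528). Timeless, a protein that stabilises the fork, was 6.92 and 7.03 in knockout and 7.25 and 7.54 in wild type (limma, adjusted p = 0.117). Neither gene had overlapping genotypes, and their log2 differences had opposite signs, 0.67 and -0.42.

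In the nucleotide supply group of 15 measured genes 0 passed limma, and the 2 with an unadjusted p under 0.05 were both higher. The shares of all genes at that p were 12.7% higher and 13.8% lower. Dctd, which makes the substrate of thymidylate synthase by deaminating dCMP, was 9.77 and 10.11 in knockout and 9.32 and 9.15 in wild type. Its difference was 0.71 (limma, adjusted p = 0.0581). Shmt2, a mitochondrial enzyme of one-carbon metabolism, was 9.23 and 9.67 in knockout and 8.95 and 9.09 in wild type, a difference of 0.43 (limma, adjusted p = 0.159). The difference of Shmt2 rested on knockout replicate 2: it was 0.21 without that mouse, and 0.65, past the threshold at adjusted p = 0.0328 by limma, without knockout replicate 1. Both genes and Tyms were higher in knockout replicate 2 than in knockout replicate 1. Rrm1, the large subunit that pairs with Rrm2 and was chosen after its values were seen, differed by 0.28, with an interval of -0.03 to 0.60.

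Among 25 measured genes that govern entry into S phase, Cdkn2c fell and 24 did not pass. Cdkn2c, an inhibitor of the cyclin D kinases, was 10.50 and 9.88 in knockout and 11.45 and 11.40 in wild type. The knockout pair was spread but lay well below the wild type pair. Its log2 difference was -1.24, with a standard error of 0.20 and an adjusted p of 0.0386 by limma, or 2.36-fold lower in knockout. The call was lost without either wild type mouse, at adjusted p = 0.183 and 0.232. The 9 measured adipocyte markers were all lower in knockout too and all above background. Their summed signal was 53527 and 38212 in knockout, against 65050 and 63598 in wild type, and the mouse with the lower sum had the lower Cdkn2c value. Their part in the fall of Cdkn2c was not tested.

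Other regulators named here were chosen after their values were seen, and none of them passed in the main fit. Ccnd1, Ccnd2 and E2f2 passed under some of the alternative settings described below. Ccnd1, which encodes the cyclin D1 partner of these kinases, was 10.61 and 11.01 in knockout and 10.10 and 10.10 in wild type (limma, adjusted p = 0.0614). Ccnd2 was 12.01 and 12.21 in knockout and 11.36 and 11.53 in wild type (limma, adjusted p = 0.0522). For both D cyclins the genotypes did not overlap. Over the 17 alternatives described below, the difference ran from 0.51 to 0.91 for Ccnd1 and from 0.57 to 0.76 for Ccnd2. Both highest values were those without knockout replicate 1. E2f2, one of the activating E2F factors, was 6.86 and 7.09 in knockout and 7.51 and 7.64 in wild type, a difference of -0.60 in the opposite sense to Mcm6. It passed limma with the arrays centred on their medians (adjusted p = 0.0495), and ran from -0.71 to -0.48 over the 17 alternatives. E2f3, of the same family, was 7.93 and 7.94 in knockout and 7.64 and 7.55 in wild type. Its difference of 0.34 had the same sense as that of Mcm6 (limma, adjusted p = 0.121). E2f4, E2f5, E2f6 and E2f7 differed by 0.18, -0.02, 0.01 and -0.17, and E2f8 was not above background. E2f1, Ccne1 and Ccna2, which act at the start of S phase or during it, differed by -0.12, -0.05 and 0.07, and the signs of Ccne1 and Ccna2 turned with a knockout mouse left out.

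**Figure D3:**
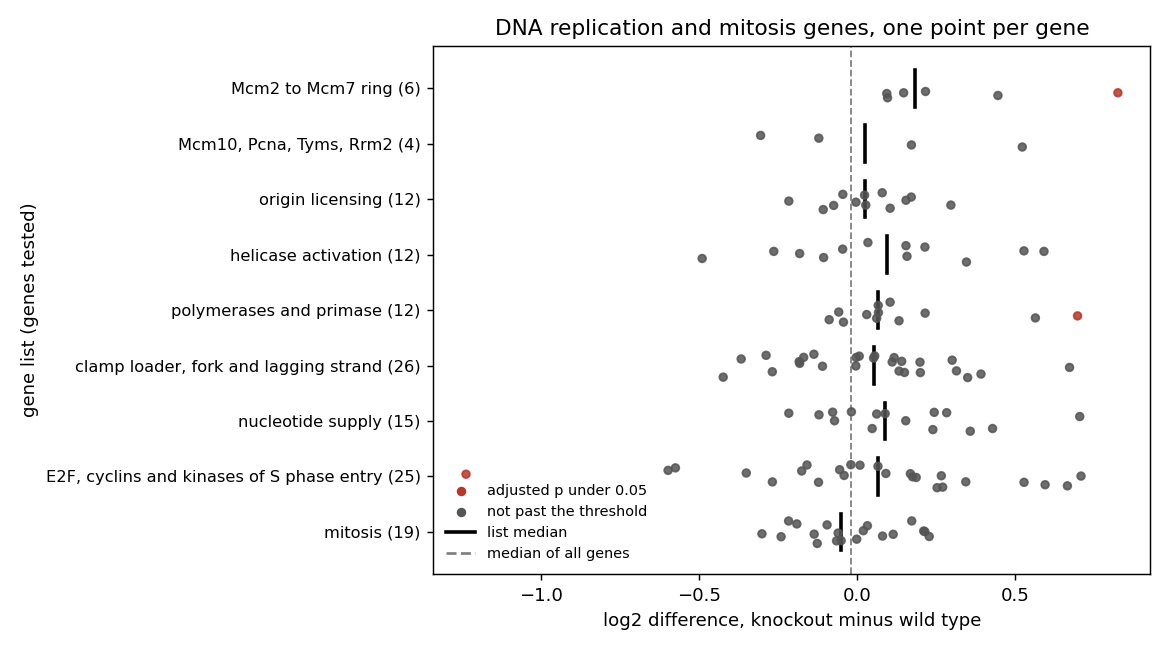
Log2 difference, knockout minus wild type (horizontal axis), with 1 point per gene, for the ring genes, Mcm10 with Pcna, Tyms and Rrm2, the 6 other replication groups and the mitosis list (vertical axis, genes tested in brackets). Red points passed an adjusted p of 0.05 (Mcm6, Pole2 and Cdkn2c), thick lines are list medians and the dashed line is the median of all genes, -0.02. Medians of the 6 other groups lie between 0.03 and 0.10.

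Genes of mitosis stood close to the median of all genes. Limma passed 0 of the 19 measured, and the median difference was -0.05. At an unadjusted limma p under 0.05 there was 1 lower gene and 0 higher, against 13.8% and 12.7% of all genes. Only 7 of the 19 were above background. Mki67, which marks cycling cells, was 6.80 and 7.25 in knockout and 6.76 and 6.86 in wild type, and the genotypes overlapped. Cdk1, the kinase that drives entry into mitosis, was 6.751 and 6.997 in knockout and 7.193 and 6.988 in wild type, also overlapping. Aurka, a kinase of the spindle poles, was 7.09 and 7.21 in knockout and 7.23 and 7.44 in wild type. Summed linear signals of the list were 1614 and 1883 in knockout, against 1758 and 1821 in wild type.

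Mcm7 hosts a cluster of 3 microRNA genes, Mir106b, Mir93 and Mir25, whose annotated positions all fall within the Mcm7 gene on chromosome 5. The mature strands below are from RefSeq on GRCm38.p6, with the seed, bases 2 to 8, in capitals, to show that miR-106b-5p and miR-93-5p share a seed and that miR-25-3p has another. On the minus strand they lie at chr5:138165787-138165807 (miR-106b-5p), chr5:138165574-138165596 (miR-93-5p) and chr5:138165332-138165353 (miR-25-3p).
miR-106b-5p: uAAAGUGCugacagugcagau
miR-93-5p: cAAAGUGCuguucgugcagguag
miR-25-3p: cAUUGCACuugucucggucuga
Mir25 was 7.63 and 7.76 in knockout and 8.10 and 8.50 in wild type, a log2 difference of -0.61 that did not pass (limma, adjusted p = 0.0806). Mir93 was 6.83 and 6.73 in knockout and 6.63 and 6.88 in wild type, and Mir106b was not above background on any array. Mcm7 itself differed by 0.15, so the host and Mir25 had opposite signs. The difference between them was not tested.

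The measured genes on either side of Mcm6 in the gene order of assembly GRCm38.p6 were Lct and Cxcr4. Lct, the gene of intestinal lactase, was 6.46 and 6.45 in knockout, below background, and 6.51 and 6.93 in wild type (limma, adjusted p = 0.317). Cxcr4, a chemokine receptor, was 6.96 and 6.96 in knockout and 7.07 and 7.03 in wild type, a difference of -0.09 with an interval of -0.36 to 0.17. Neither had the direction of Mcm6 in these values.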

How the data were processed

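From each mouse 500 ng of total RNA was labelled for Affymetrix whole-transcript arrays, per the labels' protocols. The deposited values are log2 expression values for each probe set on each array. The submitters' processing notes name RMA, limma 3.12.1 and R 2.15.0, and a genome build was not given in the sources used here. Of 23309 probe sets, 20728 have 1 gene symbol, 1174 several and 1407 none; the brightest probe set per gene over all arrays gave 19296 genes. The test of knockout against wild type was limma 3.58.1 (lmFit, eBayes) under R 4.3.3. On simulated data of 19296 genes with 200 changed, the share recovered was 80.8% at a log2 change of 1, 99.2% at a log2 change of 2 and 0% at a log2 change of 0.5. In the data 5110 genes had an unadjusted limma p under 0.05, so the share of changed genes may differ from the simulated one. The share recovered in the data cannot be read from the simulation. Folds against a genotype below background are bounds: each dim value was first raised to the background level. With 2 mice per genotype, an exact permutation test cannot go below p = 0.333, so none was used; the number of arrays limits the precision.

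The members and lists were chosen with earlier results of these data known. Named genes are all members, every gene past the threshold in a replication group (otherwise the 2 of smallest p above background), the 3 mitosis genes of smallest p above background, the microRNAs inside Mcm7, the neighbours of Mcm6 and the deleted genes. Alternatives were leaving out each mouse, other thresholds, a replicate block, a second quantile normalization, centring, filters on dim genes, all probe sets or their mean per gene, and other variance models (robust, with an intensity trend, with array weights, without pooling). Of the listed genes, 11 had no probe set with a single matching symbol and were not analysed here.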

Additional observations from a re-analysis of the deposited data

How the results depend on the processing

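Mcm6 kept its sign in all 17 alternatives and its call in 13 of them; it ran from 0.74 to 0.91 when each mouse was left out in turn. With a mouse left out, the lone mouse of its genotype is assumed to vary like the other genotype. The Mcm6 call was lost at 0.83 with no pooling of the variance (adjusted p = 0.352) and with a threshold of 0.01, for which no cause was tested. Limma passed 1 of the 10 genes; the count was 2 with a replicate block (Mcm6 and Tyms), 3 at a threshold of 0.1 (with Mcm4) and 0 at 0.01 or without pooling, where 3 and 4 had an unadjusted p under 0.05. It ran from 0 to 2 with a mouse left out. Of the 102 other replication genes, 2 passed; the count was 12 with a replicate block, 5 and 8 with dim genes filtered in at least 1 genotype or on all arrays (fewer genes tested), 9 with robust eBayes, 12 at 0.1, and 0 at 0.01 or without pooling, and it ran from 0 to 11 with a mouse left out. Without pooling limma's linear model passed 0 of all 19296 genes, with 2580 at an unadjusted p under 0.05. The replicate numbers are only numbers: deviations of same-numbered mice from their group means had a correlation of -0.03 over genes with 2 pairs, and the replicate block raised the calls over all genes to 1922, from 459. Of the 47 genes followed through the alternatives, 11 turned sign in at least 1 of them. With a mouse left out, Pcna ran from -0.27 to 0.0272, Mki67 from -0.0062 to 0.44, Mir106b from -0.12 to 0.10, Mir93 from -0.10 to 0.15, Cdc6 from -0.0024 to 0.21, Cdt1 from -0.11 to 0.10, Ccne1 from -0.19 to 0.0775, Ccna2 from -0.27 to 0.40, H2ax from -0.028 to 0.0417 and Pole from -0.29 to 0.20. Under a further quantile normalization Mir106b was 0.15, Cxcr4 0.0052, Ccne1 0.0128, H2ax -0.10 and Pole 0.12. With centred arrays Mir93 was -0.055, Ccna2 -0.0126 and H2ax -0.0724. With centred arrays 309 genes were higher and 317 lower, against 367 and 92.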

Other observations

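Genes of the DNA damage response, which guard replication forks, were a further list. Of 8 measured genes, 5 of them above background, limma passed 0, and the median log2 difference was 0.11. An unadjusted p under 0.05 in the higher direction was reached by 3, and by 12.7% of all genes. Those 3 are named after their values were seen. Chek2, a checkpoint kinase, was 7.30 and 7.50 in knockout and 6.95 and 6.80 in wild type (limma, adjusted p = 0.0748). Its difference ran from 0.42 to 0.63 over the 17 alternatives. Atr, the kinase that answers stalled forks, was 8.08 and 8.02 in knockout and 7.73 and 7.57 in wild type (limma, adjusted p = 0.103). Atm, the kinase that answers double-strand breaks, was 8.18 and 8.42 in knockout and 7.99 and 7.79 in wild type (limma, adjusted p = 0.126). The genotypes did not overlap for any of the 3, as for 60.0% of all genes. H2ax, the histone those kinases phosphorylate, was 8.20 and 8.17 in knockout and 8.14 and 8.21 in wild type, and its genotypes overlapped. They also overlapped for the rest of the list, Brca2 (0.15), Chek1 (0.07), Brca1 (-0.08) and Exo1 (-0.12). Of the rest only Brca2 was above background.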
